A study of Homo sapiens with 16 samples.

Results

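The interferon and antiviral response genes described here are 108 human genes that the authors' deposited MDA231 table names in 9 Gene Ontology biological process terms, out of 2646 genes named anywhere in that table. The 9 terms were chosen by name: 6 contain the word interferon, and 3 are the terms defense response to virus, response to virus and negative regulation of viral genome replication. Together they name 113 genes, from which CCL5, CXCL10, ICAM1, TNFAIP3 and FADD were left out as chemokine, adhesion and death receptor genes. All 9 genes taken as markers of the group (IRF7, ISG15, OAS1, OAS2, OAS3, IFIT2, IFIT3, BST2 and IFI6) are members and all stand in the term type I interferon signaling pathway. A member is thus a gene that was in the authors' MDA231 list and carries such an annotation, so its presence in these terms is a description and no test was made of it.

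The study grew brain-metastatic derivatives of 2 human breast cancer lines, MDA231 (triple-negative) and HCC1954 (ERBB2-positive), in mouse brain for 30 days and profiled their RNA by Flura-seq. In this method cells that can convert 5-fluorocytosine put the product into new RNA, which an anti-BrdU antibody then captures. Every brain came from a mouse dosed with 5-fluorocytosine (250 mg/kg) for 12 hours, and 2.5 µg of antibody was used per brain. The 16 libraries form 4 groups of 4: MDA231 IP (captured RNA), MDA231 input, HCC1954 IP and HCC1954 input. The protocol text is the same for IP and input and does not say how input RNA was prepared. The labels give no mouse strain, age or immune status, and do not say whether libraries with the same number came from the same mouse. The values analysed are 1 table of enriched terms per line, with no value per library. Depth, replicate spread and the direction of any change between IP and input are therefore unknown here, and fewer cells of a type cannot be told apart from less RNA per cell.

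Interferons are cytokines, and cells release those of type I after sensing foreign nucleic acid. Type I interferons bind the receptor chains IFNAR1 and IFNAR2, and interferon-gamma binds IFNGR1 and IFNGR2. The receptors activate JAK kinases, which phosphorylate STAT proteins. STAT complexes then bind promoters of interferon-stimulated genes, at the interferon-stimulated response element (ISRE) or at the gamma-activated site (GAS). Many of the induced proteins block viral replication, and tumour cells can keep this programme active without a virus.

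The marker genes illustrate the type I interferon term, which holds 29 of the 108 members. They do not stand for the rest, of which 44 were named in virus terms only. ISG15, a ubiquitin-like protein that is attached to other proteins, was named in 4 of the 9 terms. BST2, which tethers budding virus to the cell surface, was named in 5. OAS3, which makes the messenger 2-5A on double-stranded RNA, was also named in 5. IFIT3, an RNA-response adaptor of the IFIT family, was named in 3, and IFI6, a small interferon-induced membrane protein, in the type I term only. These 5 genes also had a motif match in the promoter, described further on, and their upstream sequence is shown for that reason. The stretches below are from RefSeq on GRCh38.p14, are written 5′ to 3′ on the gene's strand, begin 170 bases before the RefSeq start site and end before the first base that GENCODE 29 places in an exon. Capitals mark matches to the ISRE letters, which are GAAA, any 2 bases and GAAA again, on either strand.
ISG15, chr1:1013327-1013422, plus strand: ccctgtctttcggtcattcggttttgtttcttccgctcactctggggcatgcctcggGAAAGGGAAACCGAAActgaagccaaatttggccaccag
BST2, chr19:17405649-17405800, minus strand: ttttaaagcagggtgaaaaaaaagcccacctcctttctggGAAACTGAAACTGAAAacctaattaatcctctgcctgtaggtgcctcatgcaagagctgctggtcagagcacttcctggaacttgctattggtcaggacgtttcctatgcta
OAS3, chr12:112938304-112938351, plus strand: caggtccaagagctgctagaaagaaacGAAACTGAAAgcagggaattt
IFIT3, chr10:89327827-89327893, plus strand: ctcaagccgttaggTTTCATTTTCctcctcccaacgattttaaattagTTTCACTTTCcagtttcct
IFI6, chr1:27672219-27672362, minus strand: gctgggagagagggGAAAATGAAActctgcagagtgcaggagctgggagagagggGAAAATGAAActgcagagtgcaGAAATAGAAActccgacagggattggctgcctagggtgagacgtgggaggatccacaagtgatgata
In ISG15 and in BST2 the capitals are a single run in which 2 matches overlap by 4 bases. A second OAS3 match begins at position -12 from the start site, beyond the printed stretch. In IFIT3 the matches lie on the reverse strand, and in IFI6 there are 3 separate ones.

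The 9 terms differ in how strongly they were enriched. In the authors' deposited table, type I interferon signaling pathway was the 12th of 314 listed terms (4.84% of those tested) by p, with 29 of its 64 background genes in the MDA231 list, a 2.10-fold enrichment (unadjusted p = 5.82e-05, adjusted p = 0.0310). The listed genes are 45.3% of the term (95% exact binomial interval 32.8 to 58.3), whereas 21.6% of all 16792 background genes were in the list. It was the only one of the 9 with an adjusted p under 0.05, a level that 15 of 6488 tested terms (0.231%) reached. At an unadjusted p under 0.05, 8 of the 9 terms passed, beside 214 of all 314 listed terms (3.30% of the 6488 tested). The 9 were picked from the listed terms, which had already passed a limit on p. Most of this count was therefore fixed beforehand. The interval covers the draw of genes only and not the spread between libraries.

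The interferon-gamma and antiviral terms stood lower. Interferon-gamma-mediated signaling pathway named 27 of 71 genes (the authors' deposited table gives a fold of 1.76 and an adjusted p of 0.382). Defense response to virus was the largest with 52 of 165 genes, and the fold was 1.46 (adjusted p = 0.397) in the authors' deposited table. Response to virus named 36 of 110 (fold 1.52, adjusted p = 0.547) and negative regulation of viral genome replication 16 of 40 (fold 1.85, adjusted p = 0.668), again from the authors' deposited table. None of these 4 passed the adjusted threshold.

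The highest folds and widest intervals were those of 2 small regulatory terms. Positive regulation of type I interferon-mediated signaling pathway named 6 of 9 genes, or 66.7% (interval 29.9 to 92.5); the authors' deposited table gives a fold of 3.09 and an adjusted p of 0.785. Regulation of interferon-gamma-mediated signaling pathway named 8 of 13, or 61.5% (interval 31.6 to 86.1); the authors' deposited table gives a fold of 2.85 and an adjusted p of 0.599. Negative regulation of type I interferon production named 14 of 30, with a fold of 2.16 and an adjusted p of 0.518 by the authors' deposited table. Response to interferon-gamma, with 10 of 24 genes, had the largest unadjusted p of the 9 in the authors' deposited table, 0.0559 at a fold of 1.93. The largest p listed in that table is 0.0973, so terms above about that level cannot be seen.

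**Figure D1:**
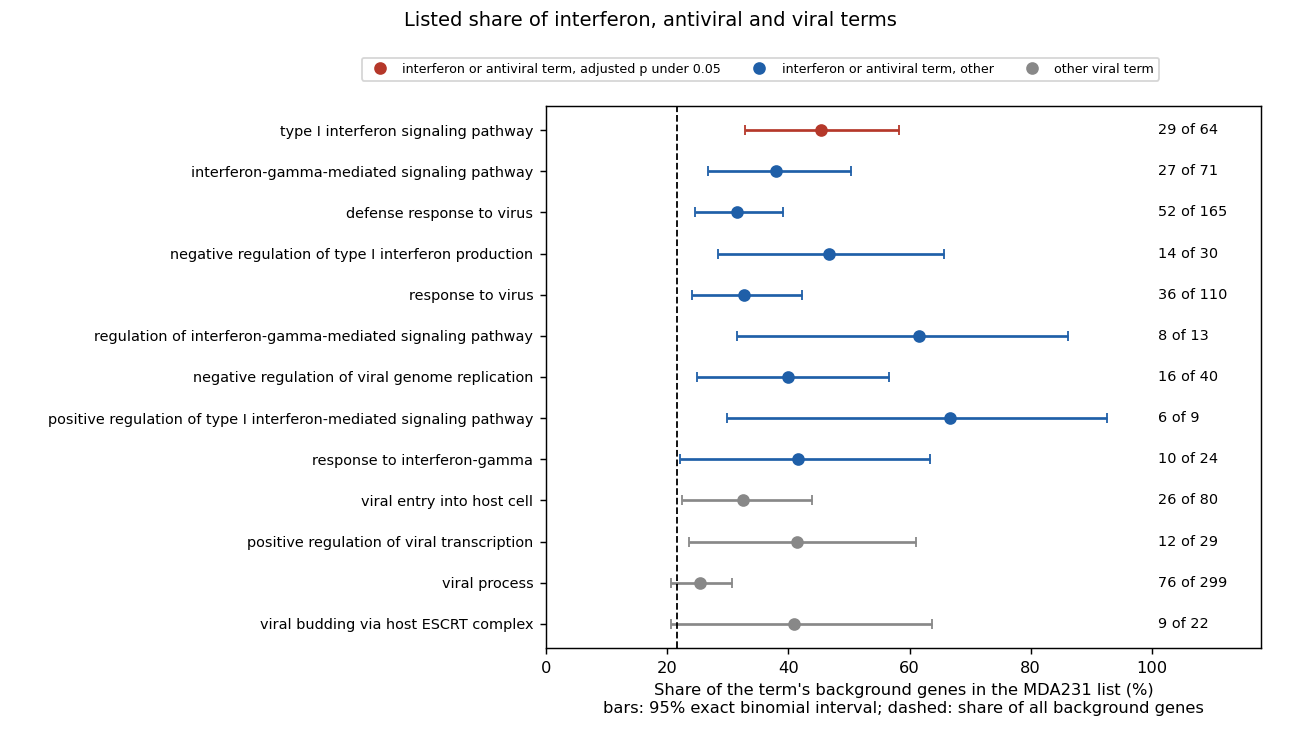
Share of each term's background genes that were in the MDA231 list (x axis, percent; points with 95% exact binomial intervals; counts at right), for the 9 interferon and antiviral terms and 4 other viral terms. The dashed line is the 21.6% of all background genes; the type I interferon term, at 45.3%, is the only term shown with an adjusted p under 0.05.

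Terms about the virus itself, which the rule leaves out, held 3 members at most, where members are 108 of all 2646 named genes. Viral process held 76 listed genes and 3 members (3.95%), and viral entry into host cell 26 and 3 (11.5%). Positive regulation of viral transcription held 12 and 1 (8.33%), and viral budding via host ESCRT complex 9 and 0. Beside the share of members among all named genes, these counts do not show that members were scarce there. The folds of these terms in the authors' deposited table were 1.18, 1.51, 1.92 and 1.89, and no term among them had an adjusted p under 0.05.

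The terms share genes, so they are not 9 separate results. Of the 108 members, 40 were named in at least 2 of the 9 terms and 68 in 1. Interferon terms named 64 members and virus terms 73, and 29 were named in both. The type I and interferon-gamma signaling terms had 13 members in common, which are 44.8% of the 29 type I members and 13 of the 26 gamma members. The type I term and defense response to virus had 17 in common, 58.6% of the type I members and 17 of the 50 in the defense term. Negative regulation of viral genome replication lay mostly inside defense response to virus, with 12 of its 15 members shared, against 12 of the 50 members of the defense term. Of the 29 type I genes, 18 were also in a virus term, and 5 (EGR1, IFI35, IFI6, TYK2 and XAF1) were in no other of the 9 terms.

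Genes at the overlap of most terms were BST2, IRF3, OAS1, OAS3 and OASL, each in 5 of the 9. ADAR, IRF7, ISG15, ISG20, MAVS, OAS2 and RSAD2 were each in 4. Those in 3 included IFIT2, IFIT3, IFNAR1, IFNAR2, IFNGR1, IFNGR2, JAK1, NLRC5, SHFL, SP100 and TBK1.

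**Figure D2:**
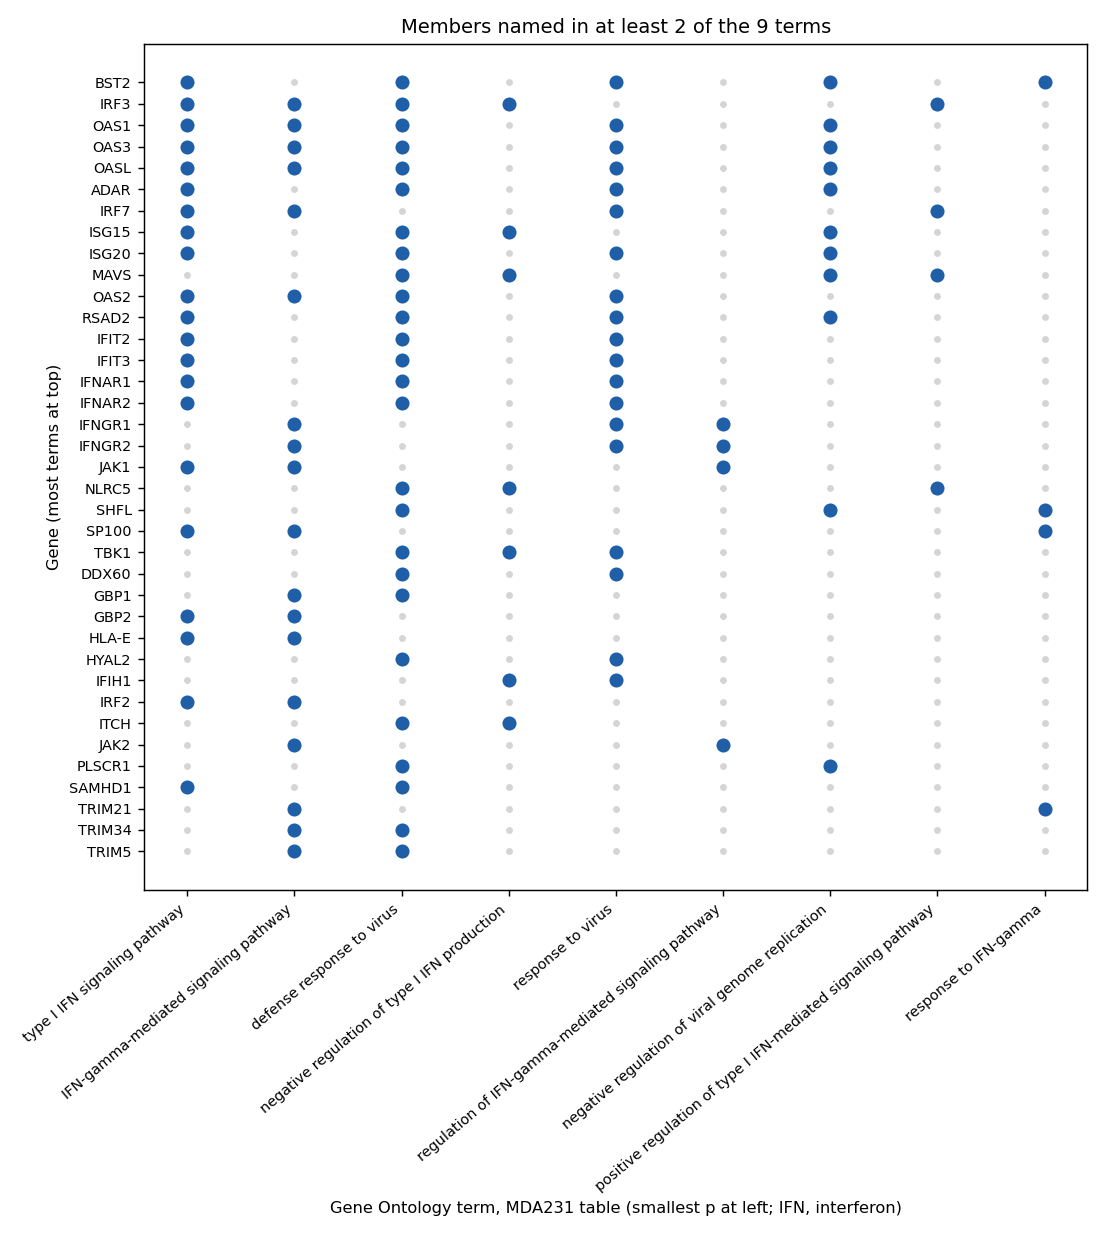
Members named in at least 2 of the 9 terms (37 of 40 are drawn; rows, most terms at top) against the terms (columns, smallest p at left); a large blue point marks that the authors' deposited table names the gene in that term. OAS1, OAS3 and OASL have points in the type I, interferon-gamma signaling, defense, response to virus and replication columns; OAS2 has none in the replication column.

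Of 6 receptor chains 5 were named and of 10 interferon genes 1, beside 15.8% of all background genes, so the share of interferon genes lies near the overall one. Among the interferon genes, IFNL1, which encodes the type III interferon lambda 1, was the one named for MDA231 (in 1 of the 9 terms); IFNA1, IFNA2, IFNB1, IFNG and 5 others were not named. Other signalling ligands among the members were IL33, CCL22, CXCL16 and WNT5A, each in 1 of the 9 terms. The receptor chains named were IFNAR1, IFNAR2, IFNGR1 and IFNGR2, each in 3 terms, and IL10RB, the chain that type III interferon receptors share with the interleukin-10 receptor, in 1. IFNLR1, its partner for type III interferons, was not named. The tables print genes only under a listed term, and a gene without a name there could still belong to the authors' list.

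Signal carriers were named in part. JAK1, the kinase shared by the type I and gamma receptors, was in 3 of the 9 terms, JAK2, which serves the gamma receptor, in 2, and TYK2, which serves IFNAR1, in 1. STAT2 and STAT3 were not named. Among interferon regulatory factors, IRF3, a constitutively expressed activator of interferon genes, was in 5 terms, and IRF7, its interferon-inducible counterpart, in 4. IRF2, mainly known as a repressor, was in 2, while IRF9 and 4 others looked up were not named. As 15.8% of all background genes were named, these absences and those of STAT2 and STAT3 are what most genes show.

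Sensors and their relays made up 13 members, all of them in a virus term. IFIH1, the MDA5 sensor of long double-stranded RNA, was in 2 terms, and MAVS, the mitochondrial adaptor it signals through, in 4. STING1, the adaptor of cytosolic DNA sensing, was in 1, and TBK1, the kinase that phosphorylates IRF3 downstream of both adaptors, in 3. The helicases DDX60 and DHX36 were in 2 and 1 terms, and UNC93B1, which carries nucleic-acid-sensing Toll-like receptors to endosomes, in 1. IKBKB and IKBKG, subunits of the IκB kinase, were in 1 each. The RNA polymerase III subunits POLR3C, POLR3D and POLR3F, parts of an enzyme that can turn cytosolic DNA into RNA ligands, were each in 1. Of 11 RNA sensors and partners looked up, 2 were named, and of 7 DNA sensors and partners also 2, STING1 and TREX1. Neither of these is itself a sensor of DNA, and TREX1 was named outside the 9 terms. CGAS, IFI16, AIM2, ZBP1 and TLR9, the rest of that list, were not named, as most genes were not. The shares of the 2 lists, 18.2% and 28.6%, stand beside the 15.8% of all background genes, and the share of the RNA list is near it.

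Inhibitors and modulators stood beside the activators. SOCS1 and SOCS3, inhibitors that STATs induce against JAK signalling, and PIAS1, an inhibitor of STAT signalling, were the 3 members found in regulation of interferon-gamma-mediated signaling pathway and in no other of the 9. Negative regulation of type I interferon production had 13 members, some of them ubiquitin editors: CYLD and OTUD5, which remove ubiquitin, and RNF216 and ITCH, which add it. NLRX1, a mitochondrial protein that restrains MAVS, TRAF3IP1 and NLRC5, which also activates MHC class I genes, were in the same term. So were IRF3, MAVS, TBK1, IFIH1, ISG15 and UBE2L6, so the term does not hold inhibitors alone. NMI, which binds STATs, was in the interferon-gamma term. USP18, which removes ISG15 and blocks the type I receptor, was named for MDA231 but in none of the 9 terms. The table gives no sign of whether activators and inhibitors moved the same way.

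The 2-5A synthetase family was named in full. OAS1, OAS2, OAS3 and OASL were all 4 in the type I term and in defense response to virus. OAS1 was named in 7 of all 314 terms, OAS2 and OAS3 in 6 and OASL in 5. The IFIT family, which binds viral RNA or the proteins that do, had IFIT2 and IFIT3 named of 5, with IFIT1, IFIT1B and IFIT5 unnamed. None of the 3 IFITM genes, which block virus entry, was named. The IFIT share of 40% stands beside the 15.8% of all background genes. At that background share, 0 of 3 is not a result about the IFITM genes.

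ISG15 conjugation had 4 of 6 genes named: ISG15 and UBE2L6, its conjugating enzyme, in the 9 terms, and HERC6 and USP18 elsewhere. Of 17 restriction factors, 7 were named. These shares, 66.7% and 41.2%, stand beside the 15.8% of all background genes. BST2 was in 5 terms. RSAD2 (viperin, which makes a chain-terminating nucleotide), ISG20 (an exonuclease) and ADAR (which edits double-stranded RNA) were in 4 each. SAMHD1, which depletes nucleotides, TRIM5, which binds retroviral capsids, and PLSCR1, a phospholipid scramblase, were in 2 each. MX1, MX2 and the 7 APOBEC3 genes were among the 10 unnamed. Antiviral members outside that list were SHFL in 3 terms, and SERINC5, DNAJC3, PARP10 and SLPI in 1 each.

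Further members are genes known to be induced by interferon or to serve antigen presentation. GBP1 and GBP2, large GTPases, were in 2 terms and GBP3 in 1. TRIM21, a cytosolic antibody receptor, and TRIM34 were in 2, and TRIM26 and MID1 in 1. SP100, a nuclear body protein, was in 3, and IFI6, IFI35, IFI44, XAF1 and UBD, a ubiquitin-like modifier, in 1 each. HLA-E, which presents peptides to natural killer receptors, was in 2. It was the only one of 6 MHC class I heavy chain genes that was named, a share near the 15.8% of all background genes. IFI30, a lysosomal thiol reductase for antigen processing, and MICA, a ligand of the NKG2D receptor, were in 1 each. TAP1, TAP2 and TAPBP, which load MHC class I, were named outside the 9 terms, while B2M and the immunoproteasome genes PSMB8, PSMB9 and PSMB10 were not.

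The remaining members carry a virus or interferon annotation beside another main function. ATG7 and BECN1 are autophagy genes. The other 27 included the transcription factors EGR1 and GATA3, the glycolytic enzyme ENO1, the muscle-type actin ACTA2, the ribosomal protein RPS15A, the translocon subunit SEC61A1, the chaperone DNAJA3, the adhesion receptor CXADR and lipocalin LCN2. Of these 27, 20 were in a virus term, 7 in an interferon term and 1, EGR1, in the type I term. One of them, ENSG00000256646, is paired with no symbol in the gene name table.

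Pathway lists drawn up with earlier results in view held 134 distinct genes in 15 roles, of which 57 (42.5%) were named for MDA231 and 49 were members. Across the background, 15.8% of genes were named. The lists are built from the same annotation as the terms, so this difference follows partly from the rule and is not a result about the members. Brain cell type lists, drawn up to look for host or other cells, had 2 of 34 genes named (5.88%, beside the same 15.8%). These were MAP2 of the neuron list and PECAM1 of the endothelial list. None of the 10 microglia and macrophage genes was named. The lists were looked up as human genes and the brains were mouse, so they cannot decide whether mouse host cells contributed. The part of such cells in the result was not tested.

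**Figure D3:**
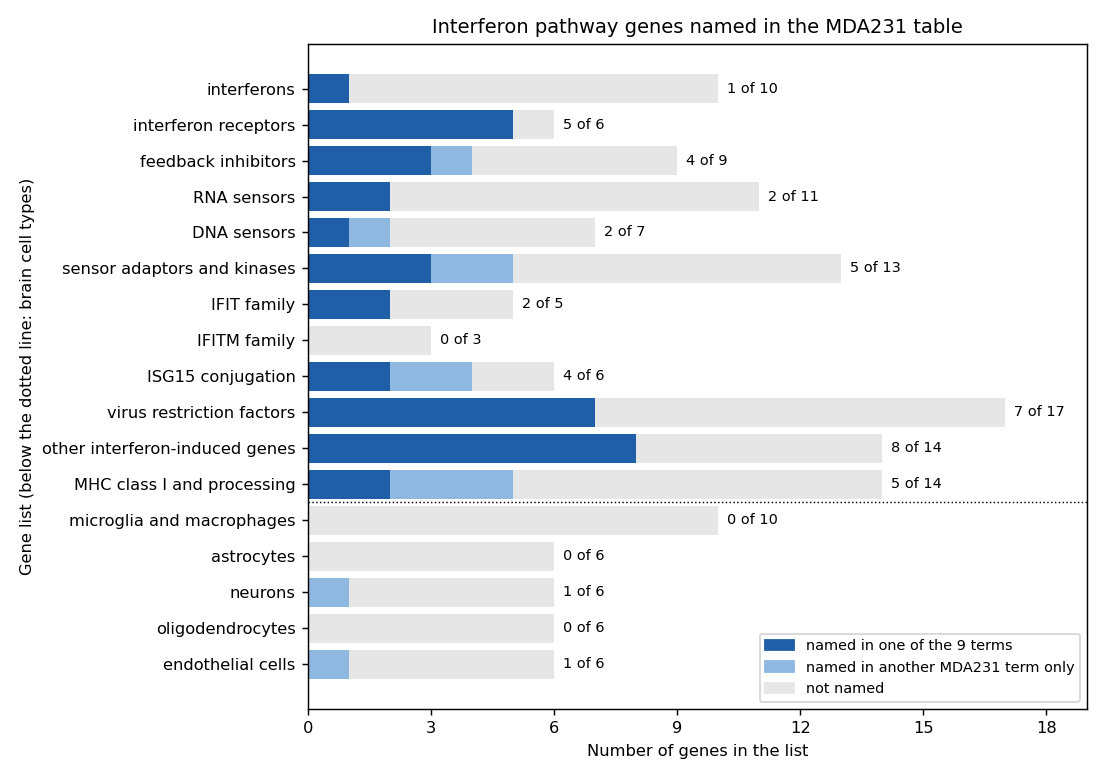
Number of genes in each of 12 pathway lists (bar length) that were named in one of the 9 terms (dark blue), in another MDA231 term only (light blue) or not at all (grey); brain cell type lists lie below the dotted line. Interferon receptors are named 5 of 6, interferons 1 of 10 and the IFITM family 0 of 3, beside 15.8% of all background genes.

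Members also stood in 114 listed MDA231 terms outside the 9. Of the 108, 79 were in at least 1 such term and 29 in none, with a median of 1 and a highest of 11 (DNAJA3). JAK-STAT cascade was the term they filled most among those with at least 9 members: 9 of its 12 listed genes were members, among them IFNAR1, IFNAR2, IFNL1, SOCS1 and SOCS3 (the authors' deposited table gives a fold of 1.74 and an adjusted p of 0.934). In the TRIF-dependent Toll-like receptor term, 5 of 11 listed genes were members: IKBKB, IKBKG, IRF3, IRF7 and TBK1. Positive regulation of I-kappaB kinase/NF-kappaB signaling held 9 among 52, with BST2, MAVS, TRIM5 and UBD beside the kinases. Apoptotic process held the most members, 12 among 141. In the other 14 terms with an adjusted p under 0.05, 23 members appeared. Protein phosphorylation held the most of them, 7 among 134 listed genes (5.22%), including JAK1, JAK2 and TYK2. Cell division, DNA repair, ER to Golgi vesicle-mediated transport, DNA replication, mitotic nuclear division and fatty acid beta-oxidation held 0. Members are 108 of all 2646 named genes, so larger terms hold more of them, and these counts are no result about the members.

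By position, 18 of the 108 members (16.7%) lay within 200 kb of another, in 7 groups. The share for other genes was not computed, so this count cannot show closer spacing than usual. In the GENCODE 29 annotation of GRCh38, 4 receptor genes form 1 group on chromosome 21: IFNAR2 (33229901 to 33265675), IL10RB (33266358 to 33310187), IFNAR1 (33324477 to 33359862) and IFNGR2 (33402896 to 33479348), all on the plus strand. OAS1, OAS3 and OAS2 adjoin on chromosome 12 (112906777 to 113011723), and GBP3, GBP1 and GBP2 on chromosome 1 (89006666 to 89150456). IFIT2 and IFIT3 are neighbours on chromosome 10, and TRIM34 and TRIM5 on chromosome 11. The remaining groups were not of 1 gene family: BECN1 with IFI35 on chromosome 17 and PIM2 with OTUD5 on chromosome X. In the OAS and GBP spans every protein-coding gene that lies wholly inside was a member (3 of 3 in each). Each span runs from its first to its last member, so only the middle gene could have been another. The TRIM34 to TRIM5 span held 2 members among 12 protein-coding genes and the BECN1 to IFI35 span 2 among 11. GBP4 and GBP5 were not named. OAS, IFIT and GBP genes are related in sequence, and the sources used here do not say how reads shared between copies were counted, so the naming of single copies is uncertain. The spans of 33 members overlap another protein-coding gene, among them IFIT2 and IFIT3 with LIPA and RSAD2 with CMPK2, and whether counting used the strand is not stated either.

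Promoter sequence, which the rule did not use, was then examined. RefSeq gives a promoter of 300 bases (250 before and 50 after a start site) for 83 of the 108 members. The ISRE letters (GAAA, any 2 bases, GAAA), searched on both strands, occurred in 21 of these 83 (25.3%, 95% exact binomial interval 16.4 to 36). They occurred in 59 of 2112 promoters of other genes named for MDA231 (2.79%) and in 503 of 15843 protein-coding promoters (3.17%). The GAS letters TTCNNNGAA, which read the same on both strands, occurred in 10 of 83 member promoters (12.0%, interval 5.93 to 21.0), in 6.11% of the promoters of other named genes and in 6.97% of protein-coding ones. No test was made, because the members were picked for their annotation as interferon genes and a match is not a binding site. Member promoters had a median GC content of 61.3%, against 65.7% for other named genes and 62.7% for protein-coding genes, and its part in the motif shares was not tested.

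Among the members, matches were more frequent in genes named in several terms. The ISRE letters were in 13 of 27 promoters (48.1%) of genes in at least 2 of the 9 terms and in 8 of 56 (14.3%) of genes in 1. By term, the share was 6 of 11 in negative regulation of viral genome replication, 6 of 17 in the type I term, 7 of 17 in the interferon-gamma signaling term and 2 of 11 in negative regulation of type I interferon production. By role, 4 of 5 TRIM promoters (TRIM5, TRIM21, TRIM26 and TRIM34) and 2 of 2 guanylate-binding protein promoters (GBP1 and GBP3) held a match. Other groups included sensors and their relays with 2 of 8, inhibitors and modulators with 2 of 10, and other antiviral effectors with 4 of 9. None was found in 4 receptor promoters, in 3 JAK kinase promoters, in 2 antigen presentation promoters or in 2 autophagy promoters. As 3.17% of protein-coding promoters matched, 0 in so few promoters is what most genes would show. Of the 23 promoters of members with another main function, 1 held a match, ACTA2, which is near that share.

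**Figure D4:**
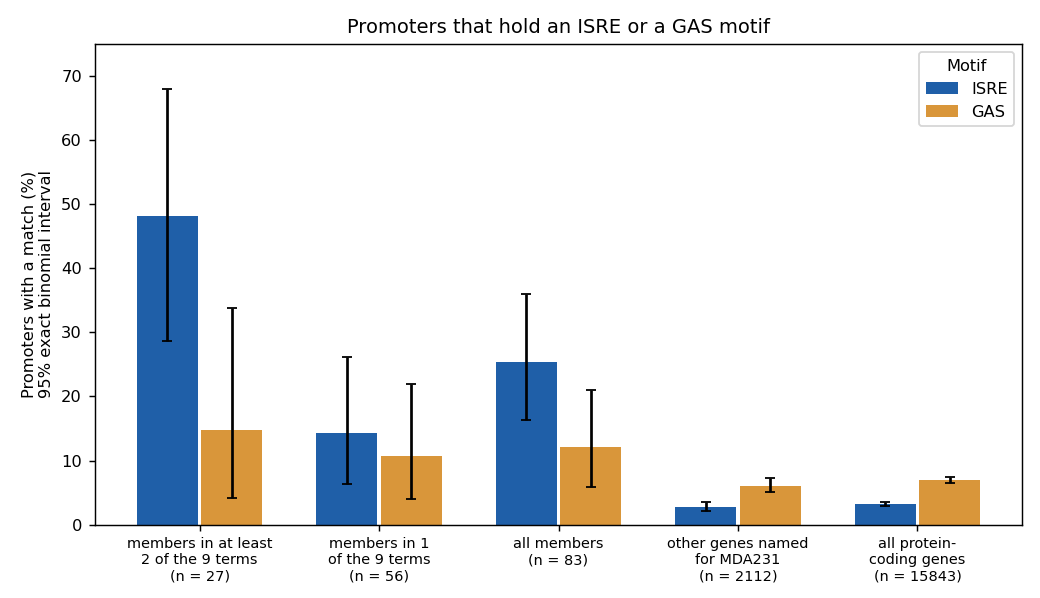
Share of promoters (y axis, percent, with 95% exact binomial intervals) that hold the ISRE or the GAS letters, for members in at least 2 and in 1 of the 9 terms, all members, other genes named for MDA231 and all protein-coding genes. The ISRE share is 48.1%, 14.3%, 25.3%, 2.79% and 3.17% in that order, and the GAS share of all members is 12.0%.

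Of the 6 marker genes with a promoter, 5 held the ISRE letters: ISG15, BST2, OAS3, IFIT3 and IFI6, whose sequences are given above. The sixth, OAS1, had no match, but at position -17 it had GAAACGAAA, in which 1 base instead of 2 separates the repeats. The same 9 letters occurred 4 times upstream of RSAD2, the farthest at position -152. With either spacing allowed, a form added after the data were examined, 26 of 83 member promoters (31.3%) and 5.67% of protein-coding promoters matched, and the type I share was 10 of 17.

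A longer form with GAAA 3 times, each 2 bases from the next, was in 6 of 83 member promoters (7.23%) and in 25 of 15843 protein-coding promoters (0.158%). Those 6 genes were BST2, ISG15, IFIH1, IFNL1, TRIM21 and TRIM26, and this form too was added after the data were examined. DDX60 is shown as an example of a member outside the type I term, since its match has the same letters as those of BST2.
DDX60, chr4:168318808-168318922, minus strand: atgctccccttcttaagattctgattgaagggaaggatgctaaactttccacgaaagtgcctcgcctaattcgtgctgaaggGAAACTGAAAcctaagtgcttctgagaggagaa
A second DDX60 match begins at position -53 from the RefSeq start site, beyond the end of the printed stretch.

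The 33 matches in the 21 promoters were spread over the window. Their first bases, read on the gene's strand, lay between positions -250 and 24 from the start site, with a median of -113. In all, 30 lay before the start and 18 were on the forward strand. Both the ISRE and the GAS letters were present in 5 member promoters, those of BST2, DDX60, GBP3, NMI and PLSCR1.

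**Figure D5:**
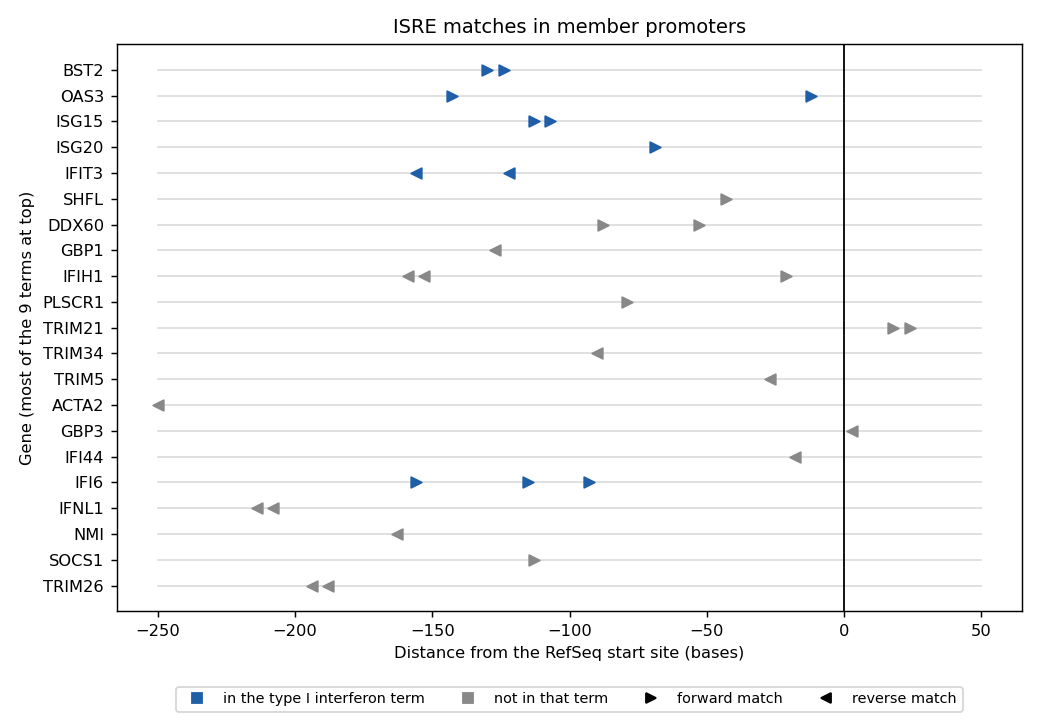
Position of each of the 33 ISRE matches (x axis, bases from the RefSeq start site; arrowheads show the strand) in 21 member promoters (rows, most of the 9 terms at top); blue marks genes of the type I interferon term. Matches in the 6 type I genes all begin before the start site (position -156 to -12).

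The HCC1954 table holds 1 interferon term, outside the adjusted threshold. None of the 108 members was named in the HCC1954 table, which names 30 genes (0.179% of the background) in 37 terms (5.23% of those tested) and shares no named gene with the MDA231 table. The MDA231 list held 3626 background genes (21.6%) and the HCC1954 list 66 (0.393%), so the lists differ greatly in size, and a count of 0 among 108 genes lies near the share of all background genes named. The interferon term, cellular response to interferon-alpha, named AXL and GAS6, 2 of its 9 background genes (22.2%, 95% exact binomial interval 2.81 to 60). Its fold was 56.5 and its adjusted p 0.828 in the authors' deposited table (unadjusted p = 0.0343). At an adjusted p under 0.05, 0 of 707 tested HCC1954 terms passed, and 25 (3.54%) at an unadjusted p under 0.05.

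AXL is a receptor tyrosine kinase and GAS6 its ligand, and in mouse dendritic cells AXL is known to use the type I receptor to induce SOCS1 and SOCS3. The HCC1954 table names AXL (ENSG00000167601, plus strand of chromosome 19, 41219203 to 41261766) in 10 terms and GAS6 (ENSG00000183087, minus strand of chromosome 13, 113820549 to 113864067) in 13. Neither appears in the MDA231 table, which names 15.8% of all background genes. The HCC1954 table names neither SOCS1 nor SOCS3, both of which are MDA231 members. It names only 30 genes (0.179% of the background), so these absences are what most genes show and are no contrast between the lines. The promoters of AXL and GAS6 held no ISRE and no GAS letters, which says only that these letters are not in the windows searched. Whether the interferon terms differ between the lines was not tested, since the tables hold no value per library.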

How the data were processed

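mRNA was captured from mouse brains with oligo(dT) beads and immunoprecipitated, per the labels' protocols. STAR, HTSeq and the GRCh38 and GRCm38 builds are named in the submitters' processing notes; the sources used here give neither the list selection, the enrichment tool, tool versions nor the handling of mouse reads. Per the file headers, the deposited tables hold for each term a gene count, a percent of submitted genes, background totals, p-values (unadjusted, Bonferroni and Benjamini), a ratio called fold enrichment and a false discovery rate in percent. A last column without a name holds −log10 p-values for 12 terms in each deposited table and was not used. Adjusted p means the authors' Benjamini value; no enrichment test was computed.

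The number of tested terms was derived from the deposited p and Bonferroni values. Ensembl identifiers were matched to symbols (107 of 108 members), to GENCODE 29 coordinates (108 of 108) and to RefSeq promoters on GRCh38.p14 (83 of 108, the first listed start site). Motif searches were checked on simulated sequences. Intervals are exact (Clopper-Pearson) and cover the draw of genes only. Members, lists and tests were chosen with earlier results of these data known. Named genes were those of the type I term, those in at least 3 of the 9 terms, the markers, the HCC1954 term's genes and named members of the role lists; other members are named by role. A few members that this rule names are not reported here, but stay in the counts. No IP against input fit was made, for want of values per library. Software was Python 3.11.15, NumPy 2.4.6, SciPy 1.17.1 and Matplotlib 3.10.9.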

Additional observations from a re-analysis of the deposited data

How the results depend on the processing

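The number of the 9 terms called depended on the measure: 1 by the adjusted p and by the authors' false discovery rate under 5 percent, 8 by the unadjusted p, and 0 by the Bonferroni p or an adjusted p under 0.01. The HCC1954 interferon-alpha term was called by the unadjusted p (1 of 1) and by none of the adjusted ones. The group had 108 genes, 113 with the dropped genes kept, 102 from terms with an unadjusted p under 0.05, 40 in at least 2 terms and 29 in the type I term alone. The type I fold was 2.10 with either count. The ISRE share of 25.3% was 13.3% on the forward strand only, 26.5% with the shorter form GAAANNGAA, 48.1% for genes in at least 2 terms and 35.3% for the type I term; among alternatives added after the data were examined, it was 31.3% with either spacing, 7.23% with 3 repeats, 22.9% before the start site and 27.7% with any start site. For protein-coding promoters the forward share was 1.51%, the shorter form 7.06%, bases before the start 2.72% and any start site 4.16%. No paired analysis was possible because the tables hold no value per library, and leaving out replicates was not run for the same reason. Small terms limit precision, as the intervals show.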
